A study of Homo sapiens with 2 samples.

Results

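Long noncoding RNA (lncRNA) genes with abundant reads in SAS cells were examined in 2 RNA-seq libraries, 1 from control cells and 1 from cells depleted of the histone demethylase KDM4C. Members were chosen by their counts in these same libraries: a row of the count table qualified if GENCODE v44 gives its gene the biotype lncRNA and if its counts over both libraries sum to at least 1000. Of the 58884 genes in the table, 14933 are lncRNA genes, 3035 of them had at least 20 counts and 129 qualified. By their symbols, 16 are hosts of small nucleolar RNAs (the SNHG genes and GAS5), 8 are microRNA hosts (MIR...HG), 31 are antisense (-AS) or divergent (-DT) to a neighbouring gene, and 74 carry other names. XIST is counted among the 74 but no value is given for it. The threshold was on the sum of both counts and not on their ratio. A gene near it could still qualify mainly through the library where it was higher, as LINC00973, LNCOG, OLMALINC and ENSG00000260401 did. The most extreme ratios of such members are therefore partly a matter of selection. Just inside it lay LINC-PINT with 1005 counts, IRX2-DT with 1008 and ENSG00000203644 with 1021, and just outside it LINC01963 with 992, LINC02035 with 977 and LINC01806 with 962.

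SAS is a line of human tongue squamous carcinoma cells, grown in DMEM with fetal bovine serum. Both groups were infected with lentivirus and selected in puromycin. The LKO group received the control vector pLKO.1 and the shKDM4C group a hairpin against KDM4C, and the sources used here do not say which of the study's hairpins the sequenced cells carried. Poly(A) RNA was sequenced from stranded libraries, with 1 library for each group, so no difference below has a replicate check and no p-value was computed.

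The libraries held 57626616 (LKO) and 50627096 (shKDM4C) counts. KDM4C itself had 1047 counts in LKO and 242 in shKDM4C, which was 27.8% of the LKO level after scaling. All 10 genes of a list of epithelial markers, not all of them particular to squamous cells, were counted in both libraries. Of these, 2 were at least 1.5-fold lower in shKDM4C (CDH1 and TP63) and 1 higher (KRT6A). The list summed to 3900 CPM (counts scaled to library size) in LKO and 2951 CPM in shKDM4C. Much of these sums came from KRT8, with 1457 and 1106 CPM, and KRT18, with 1016 and 694 CPM. A list of 10 markers of blood, endothelial and stromal cells summed to 5.85 CPM in LKO and 8.50 CPM in shKDM4C, with CD3E and HBB at 0 in both. Of its 5 genes with at least 20 counts 3 were higher and none lower: PECAM1 had 22 and 57 counts, VWF 39 and 56, and COL1A1 97 and 123. The part of these differences in the lncRNA ratios was not tested, and fewer cells of a type and less RNA per cell cannot be told apart in bulk RNA.

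LncRNAs are transcripts without a long open reading frame. Some act in the nucleus as scaffolds, as MALAT1 does in nuclear speckles and NEAT1 in paraspeckles, and some bind proteins in the cytoplasm, as NORAD binds the Pumilio proteins. Others are carriers: snoRNA hosts hold small nucleolar RNAs in their introns, which guide the modification of ribosomal RNA, and microRNA hosts hold hairpins that Drosha cuts out. Antisense and divergent transcripts start near or within a protein-coding gene on the opposite strand. Several members, among them H19, UCA1, PVT1, CYTOR and CASC19, are known for high levels in carcinomas.

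For each gene the log2 ratio of shKDM4C over LKO was computed from counts scaled by TMM, a normalization that equalises the bulk of genes. Its 95% interval covers the error of counting alone and not the spread between cultures. The interval takes reads as independent, so reads copied by PCR, which count the same molecule again, would make it too narrow. Calls of higher or lower needed a difference of 1.5-fold or more and an interval clear of 0. Among the 129 members 24 were higher and 19 lower, and 86 passed in neither direction. The median of their log2 ratios was 0.12, and the range -2.03 to 2.11. The lowest value belonged to a pair of genes inside ribosomal DNA, described below, without which the range began at -1.74. Of all 8586 genes with at least 1000 counts, 6.91% were higher and 10.8% lower (median 0.01), and of the 8368 protein-coding genes among them 6.72% were higher and 10.7% lower. The members' shares were 18.6% higher and 14.7% lower. Over all 18078 genes with at least 20 counts, 13.0% were higher and 15.7% lower. The 2906 lncRNA genes that had at least 20 but under 1000 counts had 20.3% higher and 15.3% lower, and a median of 0.08, close to the shares of the abundant lncRNA genes. Members were called more often than protein-coding genes at the same minimum count, in both directions, and with no replicates nothing here measures how far such shares vary between cultures. Scaling to total counts turned the balance of the members, with 19 higher and 22 lower, as did a minimum of 500 counts, with 40 higher and 45 lower of 253. Their median stayed above 0 but moved, to 0.043 under each of these settings, to 0.24 with a minimum of 2000 counts and to 0.26 without members that share exonic bases.

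**Figure D1:**
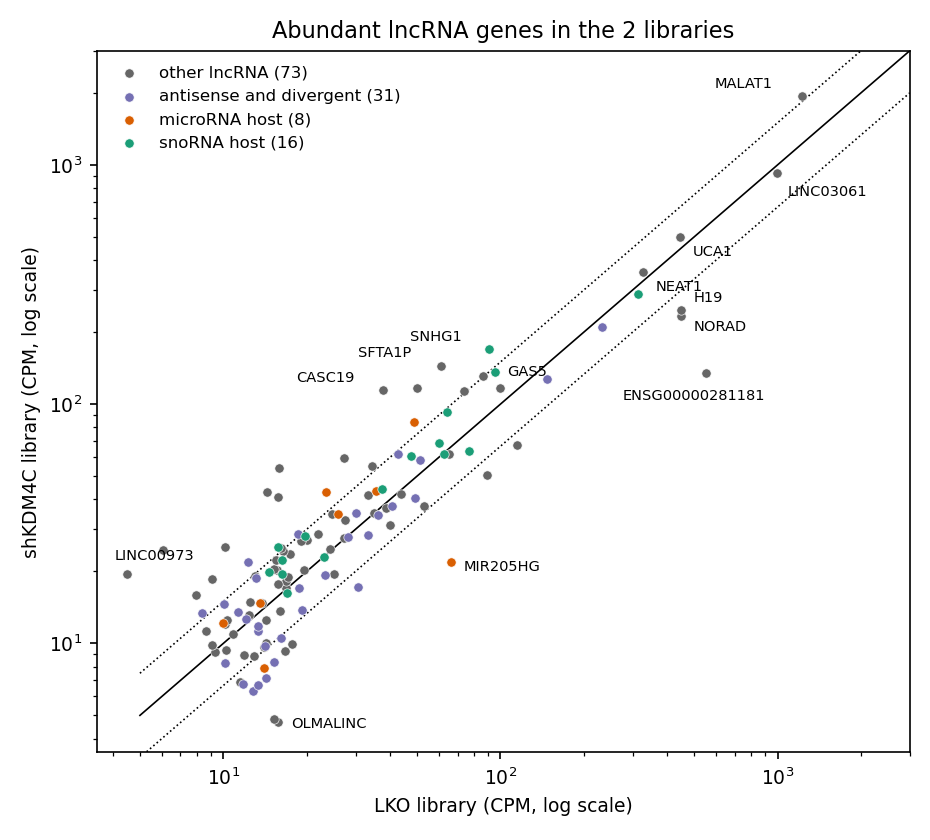
Level of 128 of the 129 abundant lncRNA genes in the LKO library (x axis) and the shKDM4C library (y axis), in CPM on log scales, 1 point per gene, coloured by class. The solid line marks equal levels and the dotted lines a 1.5-fold difference. MALAT1 is the point with the most counts in both libraries, and LINC00973 and OLMALINC lie far above and far below the lines.

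Together the members held 0.889% of the counts of the LKO library and 0.896% of the shKDM4C library, or 72.1% and 72.4% of all lncRNA counts. The 10 members with the most counts held 60.9% of the members' counts in LKO and 56.2% in shKDM4C. Scaled by TMM, the summed counts had a log2 ratio of 0.09. MALAT1 decided its sign, since without it the ratio was -0.033. Without a pair of genes inside ribosomal DNA, described below, it was 0.17.

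Calls in the 4 classes are given beside the shares of all members, 18.6% higher and 14.7% lower. In the snoRNA and microRNA host classes a few calls set the balance, and the difference between classes was not tested. The snoRNA hosts had 2 genes higher and 0 lower of 16, with a median of 0.31. Their share called higher was thus below that of all members. The microRNA hosts had 2 higher and 2 lower of 8, with a median of 0.28. The antisense and divergent genes were the class with a median below 0, at -0.16, with 3 higher and 7 lower of 31. All of these lower genes except KRT7-AS had under 1000 counts in each library and most of their counts in LKO. The remaining 74 genes had 17 higher and 10 lower, with a median of 0.15. Many members share exonic bases with another gene: when these were left out, 42 members remained, with 13 higher and 8 lower, and the antisense median rested on 4 genes and turned to 0.12.

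**Figure D2:**
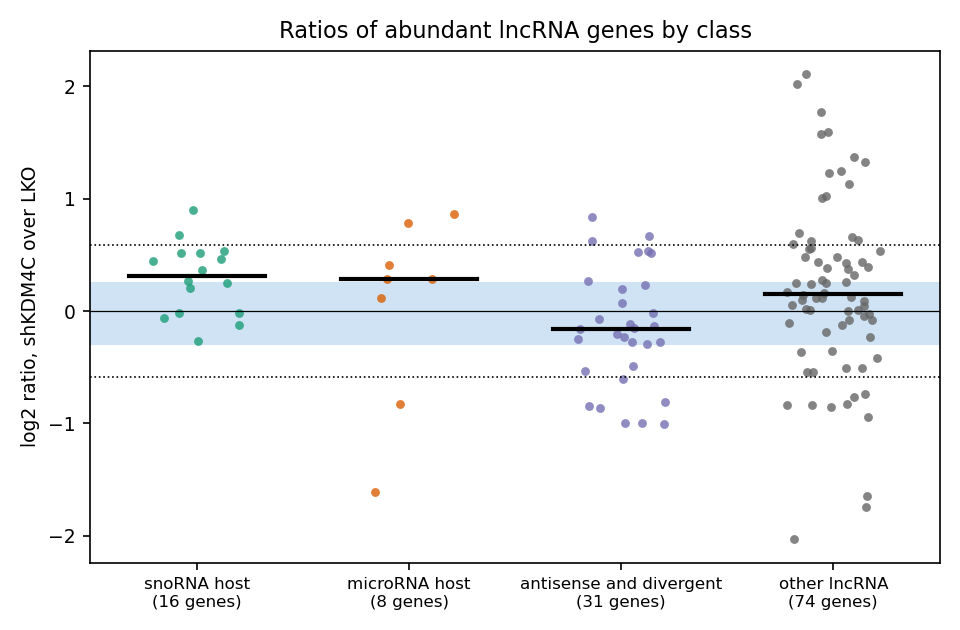
Log2 ratio of shKDM4C over LKO (y axis) for the abundant lncRNA genes of each class, 1 point per gene, without XIST. Thick bars are class medians over all members, the blue band runs from the lower to the upper quartile of the 8368 protein-coding genes with at least 1000 counts, and dotted lines mark 1.5-fold. The snoRNA hosts lie mostly above 0, the antisense and divergent genes mostly below it. The other genes reach from -2.03, a gene inside ribosomal DNA, to 2.11.

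SnoRNA hosts are spliced RNAs whose exons are often degraded in the cytoplasm while the introns give stable snoRNAs, so the poly(A) counts report the host exons and not the snoRNAs. Many such hosts are known to begin with a C followed by pyrimidines, the 5′ terminal oligopyrimidine start that ribosomal protein mRNAs also carry. RefSeq (GRCh38.p14) gives a start for 75 of the 129 members and for 14 of the 16 hosts. A C at the first base followed by at least 4 bases that are C or T, read on the transcribed strand, was found at 4 of these 14 starts, at 3 of the other 61 and at 4.07% of all 35116 starts in the table. The following starts are shown because they belong to the hosts that were called higher (SNHG1 and SNHG12) and to the others with the pyrimidine start. Each runs from 10 bases before the start to base 20 of the transcript, and capitals mark the pyrimidine run from the first base.
SNHG1, chr11:62855866-62855895, minus strand: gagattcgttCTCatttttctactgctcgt
SNHG12, chr1:28581854-28581883, minus strand: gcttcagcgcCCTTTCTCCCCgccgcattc
SNHG5, chr6:85678714-85678743, minus strand: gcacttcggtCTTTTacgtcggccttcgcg
SNHG32, chr6:31834906-31834935, plus strand: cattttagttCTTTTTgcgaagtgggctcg
SNHG4, chr5:139274091-139274120, plus strand: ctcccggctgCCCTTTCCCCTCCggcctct
The lowest ratio of the class (SNHG4) and the second highest (SNHG12) belong to the longest pyrimidine runs of the 14 starts, 13 and 11 bases.

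SNHG1 holds 9 snoRNA entries of the RefSeq table, 8 of them C/D box snoRNAs of the SNORD series, which guide methylation. It had 5391 counts in LKO and 8358 in shKDM4C, or 91.1 and 170 CPM, a log2 ratio of 0.90 (interval 0.85 to 0.95). SNHG12, which holds SNORD99 and 3 H/ACA box snoRNAs of the SNORA series that guide pseudouridylation, had 932 and 1245 counts and a log2 ratio of 0.68 (interval 0.56 to 0.81). Its neighbour SNHG3, 67.6 kb away on the opposite strand and host of SNORA73A and SNORA73B, had 3709 and 3043 counts and a ratio of -0.02, so neighbouring hosts differed. A further 9 hosts had ratios above 0 that stayed under 1.5-fold. SNHG16 was at 0.53, GAS5 at 0.52, SNHG17 at 0.52, SNHG15 at 0.46 and SNHG7 at 0.45. SNHG14, the long transcript of the Prader-Willi region with 83 SNORD genes in RefSeq, was at 0.36. SNHG8 was at 0.26, SNHG6 at 0.25 and SNHG5 at 0.20. All 9 intervals excluded 0.

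GAS5, a host known to accumulate in cells that stop growing, had 5651 counts in LKO and 6743 in shKDM4C, and 11 snoRNAs lie inside it in RefSeq. The host with the most counts was SNHG29, with 18610 in LKO and 14237 in shKDM4C, a ratio of -0.12 (interval -0.15 to -0.09). SNHG4 had 4550 and 3142 counts and the lowest ratio of the class, -0.27 (interval -0.34 to -0.20). SNHG26 at -0.06, SNHG3 at -0.02 and SNHG32 at -0.01 had intervals that held 0. ZFAS1, which carries snoRNAs but no SNHG name, stood among the other genes with 2029 and 2729 counts and a ratio of 0.69. With the class drawn from snoRNAs that GENCODE places inside the gene on its strand, 17 members qualified. Of these 3 were higher and 0 lower, and the median was 0.26. GAS5 is not among the 17, because GENCODE places 0 snoRNAs inside it on its strand. SNHG6 and SNHG8 share 58.9% and 37.6% of their exonic bases with genes on the opposite strand, and SNHG32 shares 23.2% with genes on its own strand, so their counts are less certain.

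**Figure D3:**
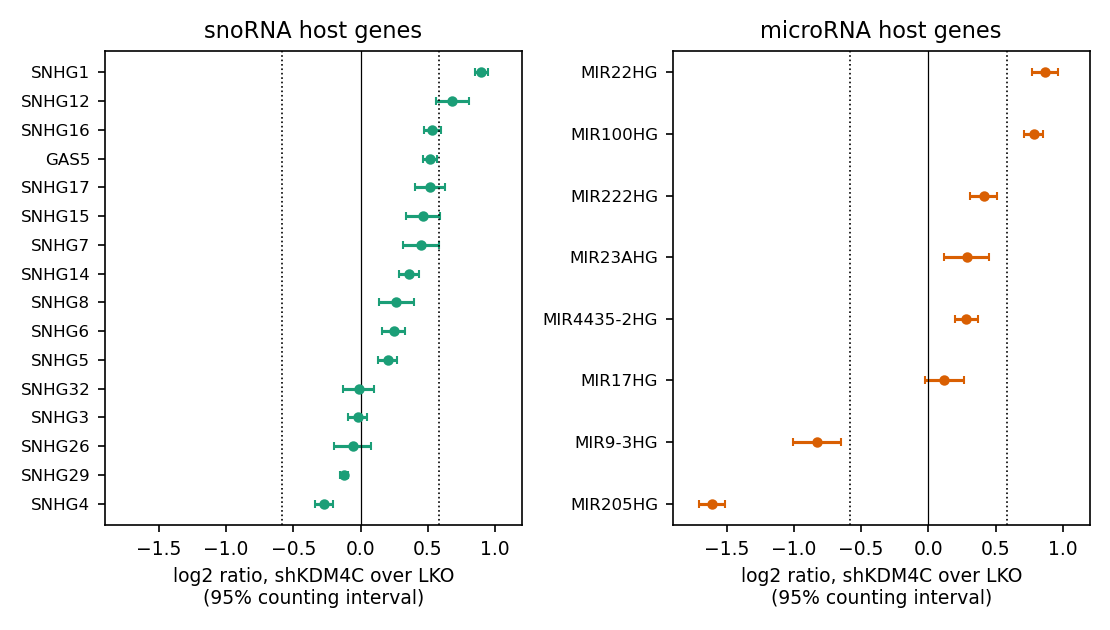
Log2 ratio of shKDM4C over LKO (x axis) for the 16 snoRNA hosts (left) and the 8 microRNA hosts (right), with 95% counting intervals as bars and dotted lines at 1.5-fold. Of the snoRNA hosts, SNHG1 and SNHG12 lie beyond the upper line and none beyond the lower. MIR205HG and MIR9-3HG lie below, MIR22HG and MIR100HG above.

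Proteins that build snoRNPs, the particles of snoRNA and protein, were counted for a list of 18 genes. None was lower and 2 were higher, against 10.7% lower and 6.72% higher among protein-coding genes with at least 1000 counts. The list's median was 0.34 (range -0.45 to 0.76). DKC1, the pseudouridine synthase of H/ACA particles, had 10386 counts in LKO and 14601 in shKDM4C, a log2 ratio of 0.76. NOP56, a core protein of C/D particles, had 13517 and 18110 counts and 0.69. FBL, the methyltransferase of C/D particles, had 6082 and 4737 counts and -0.10. Spliced snoRNA hosts are known substrates of nonsense-mediated decay. Of 15 genes of that pathway 2 were higher and none lower, beside the same shares of 6.72% and 10.7%, and the median was 0.23. A part of this pathway in the host ratios was not tested. UPF3B, which was higher, had 2648 and 3946 counts (0.84), while the helicase UPF1 had 7045 and 4195 (-0.48).

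A poly(A) library does not measure mature microRNAs, so host counts stand for the host transcripts alone. For the microRNAs named here in the 4 hosts that passed 1.5-fold, the mature arm known as the more abundant is shown, followed by such arms of MIR222HG and MIR17HG that share a seed. The other arms, and miR-10526 in MIR100HG, are not shown. Sequences are from the RefSeq table, where all 8 hosts matched, in the RNA alphabet, and capitals mark the seed (bases 2 to 8), the part that chooses targets.
miR-205-5p (MIR205HG): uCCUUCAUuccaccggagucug
miR-9-5p (MIR9-3HG): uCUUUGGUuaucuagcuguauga
miR-22-3p (MIR22HG): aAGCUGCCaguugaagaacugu
miR-100-5p (MIR100HG): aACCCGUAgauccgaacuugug
let-7a-5p (MIR100HG): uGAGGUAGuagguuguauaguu
miR-125b-5p (MIR100HG): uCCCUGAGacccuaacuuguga
miR-221-3p (MIR222HG): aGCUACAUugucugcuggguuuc
miR-222-3p (MIR222HG): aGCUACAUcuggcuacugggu
miR-17-5p (MIR17HG): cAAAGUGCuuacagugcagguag
miR-20a-5p (MIR17HG): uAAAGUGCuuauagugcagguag
miR-19a-3p (MIR17HG): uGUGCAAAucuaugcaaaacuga
miR-19b-3p (MIR17HG): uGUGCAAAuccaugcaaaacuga
The seed GCUACAU is shared by miR-221-3p and miR-222-3p, AAAGUGC by miR-17-5p and miR-20a-5p, and GUGCAAA by miR-19a-3p and miR-19b-3p. The arms shown for MIR100HG share no seed with each other.

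MIR205HG, host of miR-205, a microRNA of squamous and basal epithelium, had the largest decrease of the class. It had 3939 counts in LKO and 1075 in shKDM4C, or 66.6 and 21.8 CPM, a log2 ratio of -1.61 (interval -1.71 to -1.51), which was 32.8% of the LKO level. It lies on chromosome 1 from 209428817 to 209432848 in GRCh38 and shares no exonic base with another gene. The nearest counted protein-coding genes, CAMK1G at 151 kb and LAMB3 at 182 kb, were both higher. LAMB3, a laminin chain of epithelial basement membrane, had 8341 and 22794 counts and a log2 ratio of 1.71. MIR9-3HG, host of 1 of the miR-9 genes, had 831 and 390 counts and -0.83 (interval -1.0 to -0.65).

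MIR22HG had 1393 counts in LKO and 2117 in shKDM4C and a ratio of 0.87 (interval 0.77 to 0.97). Its gene overlaps WDR81 on the opposite strand, which was lower, with 523 and 230 counts and -0.92. MIR100HG, host of miR-100, let-7a-2 and miR-125b-1, had 2891 and 4145 counts and 0.78 (interval 0.71 to 0.85). Under 1.5-fold were MIR222HG at 0.41, MIR23AHG (miR-23a, miR-27a and miR-24-2) at 0.29, MIR4435-2HG at 0.28 and MIR17HG, host of the miR-17-92 cluster, at 0.12, the last with an interval that held 0. MIR4435-2HG shares 33.5% of its words of 31 bases with transcripts of other genes, mostly CYTOR, so reads of these paralogs may be split. With the class drawn from annotated microRNAs inside the gene on its strand, 19 members qualified and the median was 0.12. These include DLEU2, which holds miR-15a and miR-16-1 and had 972 and 1197 counts (0.56), LINC00472 with miR-30a and miR-30c-2 (-0.08), and H19 with miR-675.

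Of 13 genes that process or use microRNAs, 1 was lower and 1 higher, and the median was 0.01. Among protein-coding genes with at least 1000 counts, 10.7% were lower and 6.72% higher. AGO4 had 1226 and 464 counts and -1.14, and TNRC6C 698 and 1026 counts and 0.82. DROSHA, which cuts the hairpins from host transcripts, had 16836 and 9439 counts and -0.57, and its partner DGCR8 2500 and 1433 and -0.54, both under 1.5-fold.

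Antisense and divergent members were set beside the protein-coding gene of the same stem. For 27 of the 31 that gene had at least 20 counts. The ratios had the same sign in 16 pairs and opposite signs in 11, 4 pairs lay within 0.1 of each other on the log2 scale, and 10 lay more than 0.5 apart. Of the 9 called members with a counted partner, 3 had a partner called the same way. Over all 27 partners the median was 0.19, with 3 lower and 1 higher. Of the 3 lower partners, NUTM2A had only 22 counts in LKO and 6 in shKDM4C. Over all genes with at least 20 counts, 15.7% were lower and 13.0% higher. For protein-coding genes with at least 1000 counts the shares were 10.7% and 6.72%.

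Among pairs that moved together, KRT7-AS had 1818 counts in LKO and 844 in shKDM4C (-0.84), and KRT7, a keratin of simple epithelia, 55832 and 26368 (-0.82). GARS1-DT had 845 and 352 counts (-1.0), and GARS1, the glycyl-tRNA synthetase, 22790 and 10526 (-0.85). HMGA2-AS1 had 496 and 658 counts (0.67), and HMGA2, a chromatin protein of embryonic and tumour cells, 19865 and 28189 (0.77). PRR11-AS1 had 954 and 521 counts (-0.61), and PRR11 8957 and 4982 (-0.58). All 321 exonic bases of PRR11-AS1 overlap exons of PRR11.

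The strand setting of the counting is not given in the sources used here, so reads of an antisense gene and its overlapping partner cannot be told apart. A set of 231 genes lies wholly within opposite-strand exons of genes with at least 2000 counts. Of these, 215 had 0 counts, 10 had at least 20, and PRR11-AS1 alone had at least 1000. Among all 58884 genes, 32050 had at least 1 count. The sources also do not say how reads that overlap more than 1 gene were counted. The zeros therefore cannot show whether the strands were kept apart. KRT7-AS shares 282 of its 1693 exonic bases with the opposite strand, GARS1-DT 757 of 30756 and HMGA2-AS1 384 of 6033.

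In other pairs the 2 genes had different calls. ZFHX3-AS1 had 755 and 313 counts (-1.01), while ZFHX3, a homeobox factor, had 5232 and 4472 (0.04). MAPKAPK5-AS1 had 791 and 330 counts (-1.0), while MAPKAPK5, a stress kinase, had 2755 and 2791 (0.28). GATA2-AS1 had 698 and 332 counts (-0.81), while GATA2, a zinc-finger factor of blood and other lineages, had 1461 and 1730 (0.51). Here the antisense RNA was lower and the partner was called neither way. Each of these antisense genes qualified mainly through its LKO counts. The higher members RASSF8-AS1 and SLC16A1-AS1 had partners with ratios of the same sign under 1.5-fold. RASSF8-AS1 had 729 and 1083 counts (0.83) beside RASSF8 with 22518 and 22848 (0.28). SLC16A1-AS1 had 1101 and 1416 counts (0.63, and 0.55 with total counts, under 1.5-fold) beside SLC16A1, the lactate carrier, with 17947 and 18084 (0.27). The partner of C10orf95-AS1, which had 901 and 413 counts (-0.86), was at under 20 counts.

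**Figure D4:**
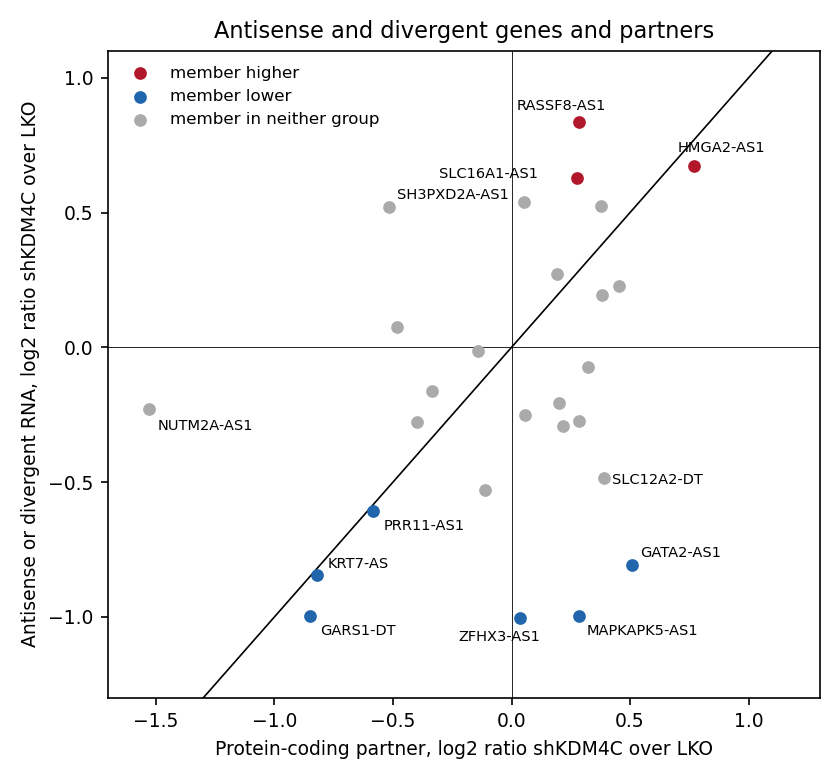
Log2 ratio of shKDM4C over LKO for 27 antisense or divergent genes (y axis) against the protein-coding gene of the same stem (x axis), 1 point per pair, coloured by the call of the antisense or divergent gene. The diagonal marks equal ratios. KRT7-AS, PRR11-AS1, GARS1-DT and HMGA2-AS1 lie near it, and GATA2-AS1, MAPKAPK5-AS1 and ZFHX3-AS1 lie far below.

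The antisense class also held abundant genes with small differences. FGD5-AS1 had 13792 and 10365 counts (-0.15), OIP5-AS1, an RNA that binds the HuR protein, 8709 and 6286 (-0.21), and NNT-AS1 2898 and 1990 (-0.28). Further under the 1.5-fold limit were DHRS4-AS1 (-0.53) and SLC12A2-DT (-0.48) on the lower side, and RNASEH1-DT (0.54), OTUD6B-AS1 (0.53), SH3PXD2A-AS1 (0.52), VPS9D1-AS1 (0.27), GABPB1-AS1 (0.23) and PSMA3-AS1 (0.19) on the higher. NUTM2A-AS1 and NUTM2B-AS1 share 55.8% and 51.9% of their words of 31 bases with other genes, mostly each other, and had -0.23 and -0.14.

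Per length, the members with the highest levels were the following. Levels are CPM per kb of exon, LKO first and shKDM4C second. The length includes bases shared with other genes, and how reads in such bases were counted is not given. ENSG00000281181 had 599 and 146, LINC03061 196 and 182, MALAT1 118 and 186, UCA1 107 and 121, and H19 129 and 71.4. ENSG00000280614 had 97.3 and 54.8, NORAD 83.1 and 43.2, ANKRD10-IT1 66.3 and 46.8, LINC02582 34.7 and 52.3, and PRR11-AS1 50.2 and 32.9.

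ENSG00000281181 and ENSG00000280614 are single-exon genes of 923 bases on the minus strand of chromosome 21, at 8437629 to 8438551 and 8393419 to 8394341. They lie inside the 18S ribosomal RNA genes RNA18SN1 and RNA18SN3 of the RefSeq table, and every word of 31 bases in them occurs in another gene. They had 32699 and 5314 counts in LKO and 6650 and 2493 in shKDM4C, log2 ratios of -2.03 and -0.83. All words of ENSG00000281181 occur in ENSG00000280614, so reads of the pair may have no single origin and their separate ratios are uncertain. ENSG00000280800 and ENSG00000281383, which lie inside RNA18SN2 and RNA18SP5, had only 3 and 11 counts in LKO and 6 and 12 in shKDM4C. How reads were divided among such genes was not tested. The part of ribosomal RNA left after poly(A) selection in these counts was not tested. Without the pair, 24 of 127 members were higher and 17 lower.

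MALAT1, a nuclear RNA on chromosome 11 at 65497640 to 65508073, had 72667 counts in LKO and 95629 in shKDM4C and a ratio of 0.66 (interval 0.65 to 0.67). With total counts the ratio was 0.58 and under 1.5-fold. Of its exonic bases 83.7% overlap a gene on the opposite strand. NEAT1, 52.1 kb away on the same strand, had 19400 and 17599 counts and 0.12 (interval 0.09 to 0.15), so these neighbours differed. None of 12 paraspeckle protein genes was lower or higher (median 0.18, range -0.46 to 0.54). Nor was any of 18 genes of the nuclear RNA exosome and its adaptors (median 0.09, range -0.35 to 0.55). The shares for protein-coding genes with at least 1000 counts were 10.7% lower and 6.72% higher.

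NORAD had 26563 counts in LKO and 11494 in shKDM4C, or 449 and 233 CPM, a log2 ratio of -0.94 (interval -0.98 to -0.91). Of its words of 31 bases 55.8% occur in transcripts of other genes, most of them OVCH1-AS1, so some reads may have no single origin. H19, the imprinted RNA next to IGF2, had 26480 and 12191 counts and -0.86 (interval -0.89 to -0.82). The nearest counted protein-coding genes were also lower, MRPL23 with 401 and 159 counts (-1.07) and TNNT3 with 146 and 46 (-1.39). UCA1, a carcinoma RNA, had 26386 and 24680 counts and 0.17, and LINC03061 58997 and 45656 and -0.11.

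Among the other genes, 10 were called lower. OLMALINC had 935 counts in LKO and 232 in shKDM4C, or 15.8 and 4.71 CPM, a log2 ratio of -1.74 (interval -1.96 to -1.54). It lies on chromosome 10 8.27 kb from SCD, the desaturase that makes oleate, on the same strand, and SCD had 89813 and 21543 counts and a ratio of -1.80. ENSG00000260401 had 898 and 238 counts (-1.65), but all of its exonic bases overlap same-strand exons of another gene, and it lies in P2RY2, a nucleotide receptor with 1311 and 553 counts (-0.98). HCG11 had 984 and 459 counts (-0.84), and CHROMR, an RNA of cholesterol balance in primates, 1047 and 489 (-0.83). PRKRA, which CHROMR overlaps on the opposite strand, had 2212 and 1913 counts (0.05). ENSG00000276850 had 6771 and 3315 counts (-0.77) with 60.2% of its words shared with ANXA8. ENSG00000203644 had 681 and 340 counts (-0.74) and lies in TMCC1, which had 1712 and 2047 (0.52). The remaining genes of the 10 are NORAD, H19 and the pair in ribosomal DNA.

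**Figure D5:**
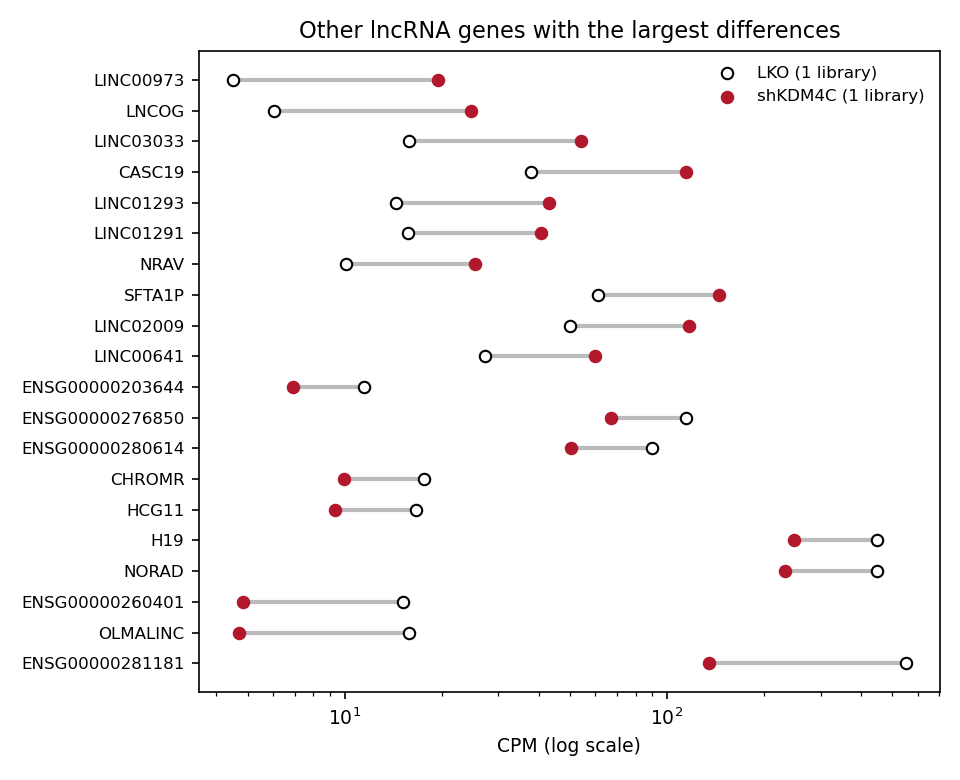
Levels of the 10 lowest and the 10 highest other lncRNA genes, ranked by the interval bound nearest 0, in the LKO library (open circles) and the shKDM4C library (filled circles), in CPM on a log scale. From LINC00973 at the top to LINC00641 the filled circle lies to the right, and from ENSG00000203644 down it lies to the left.

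Of the other genes, 17 were called higher, and the 2 largest ratios belonged to genes of low level in LKO. LINC00973 had 266 counts in LKO and 958 in shKDM4C, or 4.49 and 19.4 CPM, a log2 ratio of 2.11 (interval 1.92 to 2.31). LNCOG had 357 and 1212 counts (2.03, interval 1.86 to 2.20). LINC03033 had 939 and 2665 counts (1.77). It lies inside a protein-coding gene on its strand and shares exonic bases on that strand. Of its words 26.2% occur in other genes, so some of its reads may have no single origin. The nearest counted protein-coding genes were PRKCH at 19.4 kb (0.05) and HIF1A, the hypoxia factor, at 36.8 kb. HIF1A had 35816 and 35111 counts (0.24). LINC01293 and LINC01291 lie 1.84 kb apart on the same strand of chromosome 2 and were both higher, with 852 and 2122 counts (1.58) and 930 and 2010 counts (1.38). The nearest counted protein-coding genes, POLE4 and the hexokinase HK2, had 0.10 and 0.35.

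CASC19, in the gene desert beside MYC, had 2239 and 5639 counts and 1.60 (interval 1.53 to 1.67). MYC, 508 kb away, had 10006 and 11106 counts (0.41), and PVT1 on its other side 1464 and 1707 (0.49). LRATD2, 514 kb from CASC19, was lower, with 5818 and 2477 counts (-0.97). NRAV, an RNA known for restraining antiviral genes, had 598 and 1249 counts (1.33). SFTA1P had 3614 and 7135 counts (1.25). LINC02009 had 2952 and 5772 counts (1.23), and CCRL2, a chemerin receptor 3.53 kb away, was also higher, with 980 and 2133 counts (1.39). LINC00641 had 1610 and 2946 counts (1.14) and its neighbour HNRNPC 57988 and 54730 (0.18). ENSG00000237870 (1.03) and LINC00601 (1.01) were also above 2-fold. LINC02945 (0.63), LINC00958 (0.63) and LINC02582 (0.59) passed 1.5-fold with TMM but not with total counts. Of the 17, 14 lie outside the body of any protein-coding gene, as do 6 of the 10 lower genes and 44 of the 74 in the class.

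The genes of this class called in neither direction and given a value lay between -0.54 (LINC00294) and 0.56 (DLEU2), and those of the antisense and divergent class between -0.53 and 0.54. Other lncRNAs known in carcinoma or development stayed under 1.5-fold. DLEU1, which overlaps DLEU2 on the opposite strand, had 1032 and 1167 counts (0.44), and CYTOR 1182 and 1332 (0.44), with 62.2% of its words shared, mostly with MIR4435-2HG. DANCR had 735 and 650 counts (0.09), FTX, which lies in the X inactivation centre, 994 and 898 (0.12), and KCNQ1OT1, the imprinted antisense RNA of KCNQ1, 845 and 620 (-0.18). PRECSIT and ANKRD10-IT1, 24.3 kb apart on the same strand of chromosome 13, had 841 and 493 counts (-0.51) and 3138 and 1844 counts (-0.50). LINC-PINT, which holds miR-29a and miR-29b-1, had 553 and 452 counts (-0.03).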

How the data were processed

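The authors sequenced poly(A) RNA of 1 LKO and 1 shKDM4C library and deposited whole-number read counts per gene. The submitters' processing notes name Trimmomatic, HISAT2, featureCounts, DESeq2 and GRCh38. The sources used here give no versions, gene annotation or strand setting. The deposited tables of the authors' own comparison (CPM, fold changes, p-values) were not used. Symbols, biotypes and overlaps came from GENCODE v44, which holds 58472 of the 58884 gene IDs.

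Genes with at least 20 counts were scaled with TMM (edgeR 4.0.16, R 4.3.3). Log2 ratios used a prior count of 0.5. Intervals (95%) were exact and binomial (Clopper-Pearson), conditional on the sum of both counts. Python 3.11.15, numpy 2.4.6, pandas 2.3.3, scipy 1.17.1 and matplotlib 3.10.9 were used, and DESeq2 1.42.0 gave the median-of-ratios alternative. The calls were run on simulated counts with counting error alone, the error that the interval assumes. That run holds no spread between cultures, so it cannot show how reliable the calls are. Shared sequence was measured as words of 31 bases also found in transcripts of genes that do not overlap.

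The members and lists were chosen with earlier results of these data known. Named are all snoRNA and microRNA hosts, the 10 members with the highest counts per kb, the 10 lowest and 10 highest antisense and other genes by the interval bound nearest 0, a list of well known lncRNAs, the members at the threshold, partners of the same stem and up to 3 genes per protein list in each direction. The nearest protein-coding neighbours, PRECSIT, LINC00472, FBL, UPF1, DROSHA and DGCR8, and genes that lost a call with total counts, were named after their values were seen. The values of 1 gene of the protein lists are not reported here.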

Additional observations from a re-analysis of the deposited data

How the results depend on the processing

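No paired analysis was possible because each group has 1 library. Of 128 members, 128 kept their call with median-of-ratios factors and 120 with total counts, where 5 lost it and 3 gained it (DHRS4-AS1, ENSG00000267002 and LINC00294). The log2 ratio of summed counts was 0.011 with total counts and 0.10 with median-of-ratios factors. A minimum of 500 counts gave 45 members lower and 40 higher of 253, which turned the balance. A minimum of 2000 gave 7 lower and 17 higher of 72 and a microRNA host median of 0.41. Without members that share exonic bases, 8 were lower and 13 higher, and the medians were 0.52 for 3 snoRNA hosts, 0.41 for 3 microRNA hosts and 0.12 for 4 antisense genes. At 2-fold, 5 were lower and 12 higher. With microRNA hosts taken by position the median was 0.12. The summed ratio was 0.17 without the pair in ribosomal DNA and -0.033 without MALAT1, alternatives chosen after seeing the data. Other scalings, priors and intervals left the counts of calls within 1.5 times. The cause of these shifts was not tested, and where members were left out fewer genes were measured. With 1 library per group, the depth limits counting error only, and the spread between cultures is unknown.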

Other observations

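Groupings made after the values were seen, and given without a test, split the members further. Of 21 members whose symbol starts with LINC, 10 were higher and 0 lower, and the median was 0.54 on the log2 scale. Among the 325 such genes with at least 20 but under 1000 counts, 28.6% were higher and 19.4% lower, with a median of 0.13. Of 22 members with no symbol, 1 was higher and 5 lower, the pair in ribosomal DNA among the latter, and the median was 0.08. Of 1471 less abundant genes with no symbol, 20.7% were higher and 12.9% lower, with a median of 0.14, and the difference between these groups was not tested. Of 22 members with a single exon after merging, MALAT1 and SNHG1 were higher and 7 lower, among them NORAD, HCG11, MAPKAPK5-AS1 and the pair in ribosomal DNA. The 749 less abundant single-exon lncRNA genes had 16.3% higher and 17.0% lower.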
